A study of Homo sapiens with 8 samples.

Results

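The genes described here are the protein-coding genes that start on the long arm of human chromosome 20 (20q), after position 29000000 of GRCh37, and that hold 50 or more counts in every RNA-seq library of a breast cancer progression model. They were chosen by position and by that count minimum, and 196 of the 352 protein-coding long-arm genes in the table met it, out of 11159 protein-coding genes with the minimum in the whole series. The first along the arm was HM13 (chr20:30102231-30165726, plus strand) and the last PCMTD2 (chr20:62887048-62936173, plus strand). The question is whether the arm as a whole, and which of its genes, sat at a different level in the 4 lines. The arm was taken up because its median change was already known to be below that of the other autosomes, so that change is given as a description and carries no test.

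Poly A+ RNA was sequenced from 4 related human mammary epithelial lines, in 2 biological replicates each, 8 libraries in all. M1 is MCF10A, a spontaneously immortalized line that does not form tumors. M2 (MCF10AT1k.cl2) was made from it by introducing the activated T24-HRAS gene and passing the cells through xenografts, and M3 (MCF10Ca1h) and M4 (MCF10CA1a.cl1) were established from carcinomas that grew in M2 xenografts, so each line is 1 derived population. All were grown for 8 days as acini in Matrigel with 2% horse serum. M1 and M2 received 10 ng/ml EGF and M3 and M4 received none, so in M3 or M4 against M1 the line and the EGF cannot be told apart, whereas M2 against M1 and M4 against M3 share one medium. The library totals ran from 69669970 to 107350344 counts, of which the 196 genes took 1.23% to 1.53%.

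The long arm of chromosome 20 is one of the regions most often gained in epithelial tumors, breast carcinomas among them. It carries the mitotic kinase gene AURKA, its activator TPX2, the anaphase-promoting complex E2 enzyme UBE2C, the zinc finger gene ZNF217, the coactivator gene NCOA3 and the anti-apoptotic gene BCL2L1. When a whole arm is gained or lost, the transcripts of its genes tend to move together by a small step, while single genes also move through their own regulation. The data hold RNA levels only and no measure of DNA copy number, and in a bulk sample fewer cells of a type and less RNA per cell cannot be told apart.

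Some libraries stood apart, and this bears on the results below. A table published with the study assigns the libraries labelled M1 replicate 2 and M2 replicate 1 the other way round from the sample labels; the labels are followed here, and the values with those 2 libraries exchanged are given in the closing section. By rank correlation across 10786 autosomal genes with the minimum, the libraries labelled as M2 resembled each other most (rho 0.999), those labelled as M1 less so (0.962), and M1 replicate 2 resembled M2 replicate 1 less again (0.951). The M2 replicates differed by more than counting error alone gives (chi-square per degree of freedom 7.15 over 12313 genes) and by far less than the replicates of the other lines (145 to 392). That measure takes reads as independent molecules, which duplicate reads are not, so it does not tell separate cultures from repeated libraries, and the M2 replicates were kept as 2 samples because the labels give them so. Markers of mammary epithelium (11 genes) summed to between 11006 and 18321 CPM (counts scaled to each library's effective total) in every library. Leukocyte markers (4 genes) summed to 24.8 and 14.4 CPM in M1 and to between 1.24 and 5.78 CPM elsewhere, nearly all of it CD14, with CD3E at 0 in every library and PTPRC at 0 in all but M1 replicate 2, which held 3 counts. Fibroblast markers (5 genes) summed to 34.7 CPM in M1 replicate 1, 2.65 CPM in M1 replicate 2, 60.9 and 59.5 CPM in M2 and between 0.28 and 2.92 CPM in M3 and M4, with DCN giving 2820 and 133 counts in the M1 replicates. The 2 endothelial markers matched by name summed to at most 0.33 CPM. The part of these markers in the results was not tested. HRAS, the transfected gene, had 154 and 139 CPM in M1, 160 and 153 CPM in M2, 269 and 327 CPM in M3 and 335 and 352 CPM in M4. It did not pass the test in M2 against M1 (log2 fold change 0.10, adjusted p = 0.736) and rose in M3 (1.03, adjusted p = 0.0038) and M4 (1.23, adjusted p = 0.00119; edgeR's quasi-likelihood test with Benjamini-Hochberg adjustment over all 18431 genes tested, used throughout).

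The level of the arm in a library was taken as the median, over the 196 genes, of log2 CPM centred on each gene's mean over the 8 libraries, minus the same median over 10490 protein-coding genes of the 21 other autosomes. It was 0.25 in M1 replicate 1 and 0.07 in M1 replicate 2. The M2 replicates were at -0.035 and -0.036. Those of M3 were at -0.15 and -0.13, and the M4 libraries at -0.0083 and 0.015. M1 replicate 1 was therefore the highest library by a wide margin and the M3 libraries were the lowest, and the M1 replicates were further apart from each other than M1 replicate 2 was from any M2 or M4 library. The mean level was 0.16 ± 0.12 for M1, -0.036 ± 0.00062 for the M2 line, -0.14 ± 0.013 for M3 and 0.0033 ± 0.016 for M4 (SD, n = 2 libraries). The short arm (20p, 100 genes with the minimum) was at 0.26 in M1 replicate 1 and between -0.074 and -0.0015 in the other 7 libraries. Both arms of chromosome 20 were thus high in that 1 library, whereas the low level of M3 was seen on the long arm and not on the short arm, where M3 stood at -0.0024 and -0.0078.

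**Figure D1:**
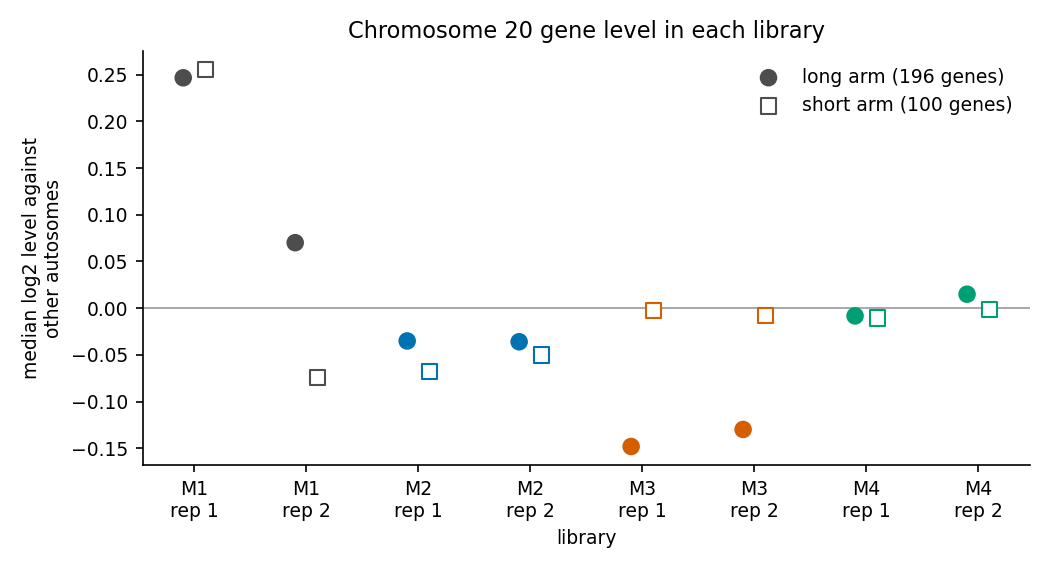
Median log2 level of the chromosome 20 genes in each of the 8 libraries (x axis), relative to the other autosomes (y axis, log2); filled circles are the 196 long-arm genes, open squares the 100 short-arm genes, and colors mark the lines. M1 replicate 1 lies at 0.25 for the long arm and 0.26 for the short arm, and the M3 long-arm circles lie lowest, at -0.15 and -0.13.

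M1 replicate 1 was the library with the highest CPM for 70 of the 196 genes (35.7%), against 12.6% of the genes of the other autosomes. It was the lowest for 5, against 16.1% of the other autosomes' genes. M3 replicate 1 was the lowest for 51 of the 196 genes, against 15.2% of the other autosomes' genes. M1 replicate 2 was the lowest for 37 (against 19.5%) and M3 replicate 2 for 26 (against 10.6%). Between the M1 replicates, 153 of the 196 genes (78.1%) were higher in replicate 1, against 51.1% of the other autosomes' genes, with a median difference of 0.22 (log2) beyond theirs. In M2, M3 and M4 the same difference between replicates was -0.0096, 0.009 and -0.0031. Among the genes with a large ratio between the M1 replicates, picked after their values were seen, were ID1, an inhibitor of basic helix-loop-helix transcription factors, at 355 and 58.9 CPM, and PI3, which encodes the elastase inhibitor elafin, at 9.68 and 2.92 CPM. ID1 stood between 76.5 and 141 CPM in the other 6 libraries, so that 1 library alone held its high value.

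Against M1 the arm's median log2 fold change was below that of the other autosomes in each line. In M2 the 196 genes had a median of -0.18 and the other autosomes 0.03, a shift of -0.21, or 0.863 on the linear scale. In M3 the medians were -0.21 and 0.062, a shift of -0.27 (0.83), and in M4 -0.11 and 0.076, a shift of -0.19 (0.877). Short-arm genes were shifted by -0.14, -0.18 and -0.12. The 3 comparisons share the M1 libraries, so their shifts are not independent. Between pairs of libraries the shift depended on which M1 replicate was used. M2 libraries were shifted by -0.33 and -0.31 against M1 replicate 1 but by -0.069 and -0.085 against M1 replicate 2, and M4 libraries by -0.30 and -0.28 against the former but by -0.052 and -0.006 against the latter. M3 libraries were shifted by -0.35 and -0.37 against M1 replicate 1 and by -0.20 and -0.24 against M1 replicate 2. Fitted without M1 replicate 1, the shift was -0.077 in M2, -0.21 in M3 and -0.031 in M4, and that of the short arm -0.013, 0.0061 and 0.051. Without M1 replicate 2 it was -0.32, -0.36 and -0.27.

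Comparisons that do not involve M1 gave smaller shifts. M3 was below M2 by 0.094 on the log2 scale (shift -0.094), with all 4 pairs of libraries between -0.13 and -0.074, while the short arm was at 0.033. M4 was above M3, at 0.086 with library pairs from 0.088 to 0.17, and above M2, at 0.051 with pairs from 0.052 to 0.083. The step between M3 and M2 was -0.018 by the mean in place of the median and -0.15 with the 2 disputed libraries exchanged, so its size depended on both choices.

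In M3 and M4, though not in M2, other chromosomes moved by as much. Among 23 units, the 21 other autosomes and both arms of chromosome 20, the long arm had the lowest median in M2 against M1 and in M3 against M1 and the second lowest in M4 against M1, where chromosome 19 was at -0.37. In M2 the next in size were the short arm at -0.14 and chromosome 9 at 0.10. In M3 against M1 chromosome 19 was at -0.24 and chromosome 16 at -0.23, and chromosome 15 was the highest at 0.33. Without M1 replicate 1 the long arm ranked 3 from the lowest in M2 and in M3 and 6 from the lowest in M4. Replicates of a line also differed by whole chromosomes elsewhere: M1 replicate 1 was lower than replicate 2 on chromosome 9 (-0.17), M3 replicate 1 was higher than replicate 2 on chromosome 7 (0.27) and lower on chromosome 15 (-0.17), and M4 replicate 1 was lower than replicate 2 on chromosome 10 (-0.33). Off chromosome 20, only chromosome 7 in M3 and chromosome 10 in M4 reached the size of the long arm's shifts against M1. In M2 the largest difference between replicates was that of the short arm (-0.022). Differences between replicates compare single libraries, whereas the shifts between lines are fitted on 2 libraries per line, so the sizes are not directly comparable.

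**Figure D2:**
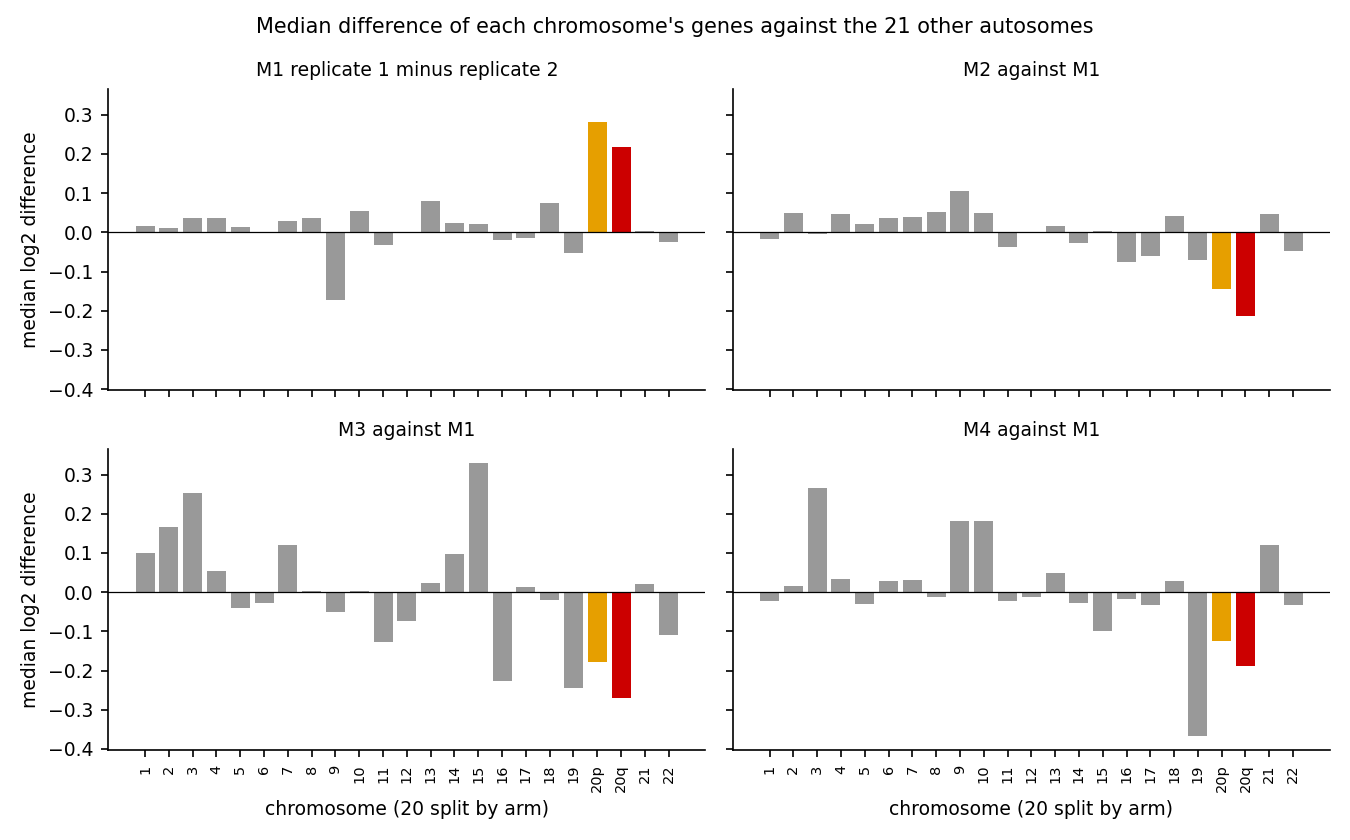
Median log2 difference (y axis) of the genes of each autosome, with chromosome 20 split by arm (x axis), against the 21 other autosomes, for M1 replicate 1 minus replicate 2 and for M2, M3 and M4 against M1; red bars are 20q, orange bars 20p. The 20q bar is at 0.22 between the M1 replicates and at -0.21, -0.27 and -0.19 in the line comparisons, and chromosome 9 reaches -0.17 between the M1 replicates.

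By position, the 196 genes were cut into 7 windows of 5 megabases from 30 megabases on, holding 51, 23, 33, 24, 7, 17 and 41 genes. M1 replicate 1 was above replicate 2 in each window, by 0.15 to 0.35 on the log2 scale. In M2 against M1 all windows were below the other autosomes, from -0.07 in the window at 35 to 40 megabases to -0.36 at 40 to 45 megabases. In M3 against M1 all were below as well, from -0.11 at 55 to 60 megabases to -0.52 at 40 to 45 megabases. In M4 against M1 the windows ran from -0.30 at 40 to 45 megabases to 0.036 at 45 to 50 megabases. Without M1 replicate 1, M3 was still below in each window, from -0.34 at 40 to 45 megabases to -0.015 at 55 to 60 megabases. M4 then ran from -0.20 to 0.16 and M2 from -0.22 to 0.018. The window at 40 to 45 megabases, which holds MYBL2, UBE2C, PI3 and DBNDD2 among its 33 genes, was the lowest in each of these comparisons, with and without that library. The window at 50 to 55 megabases holds only 7 genes and its median is correspondingly coarse. In M4 against M3 the windows ran from -0.24 at 50 to 55 megabases to 0.22 at 30 to 35 megabases.

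**Figure D3:**
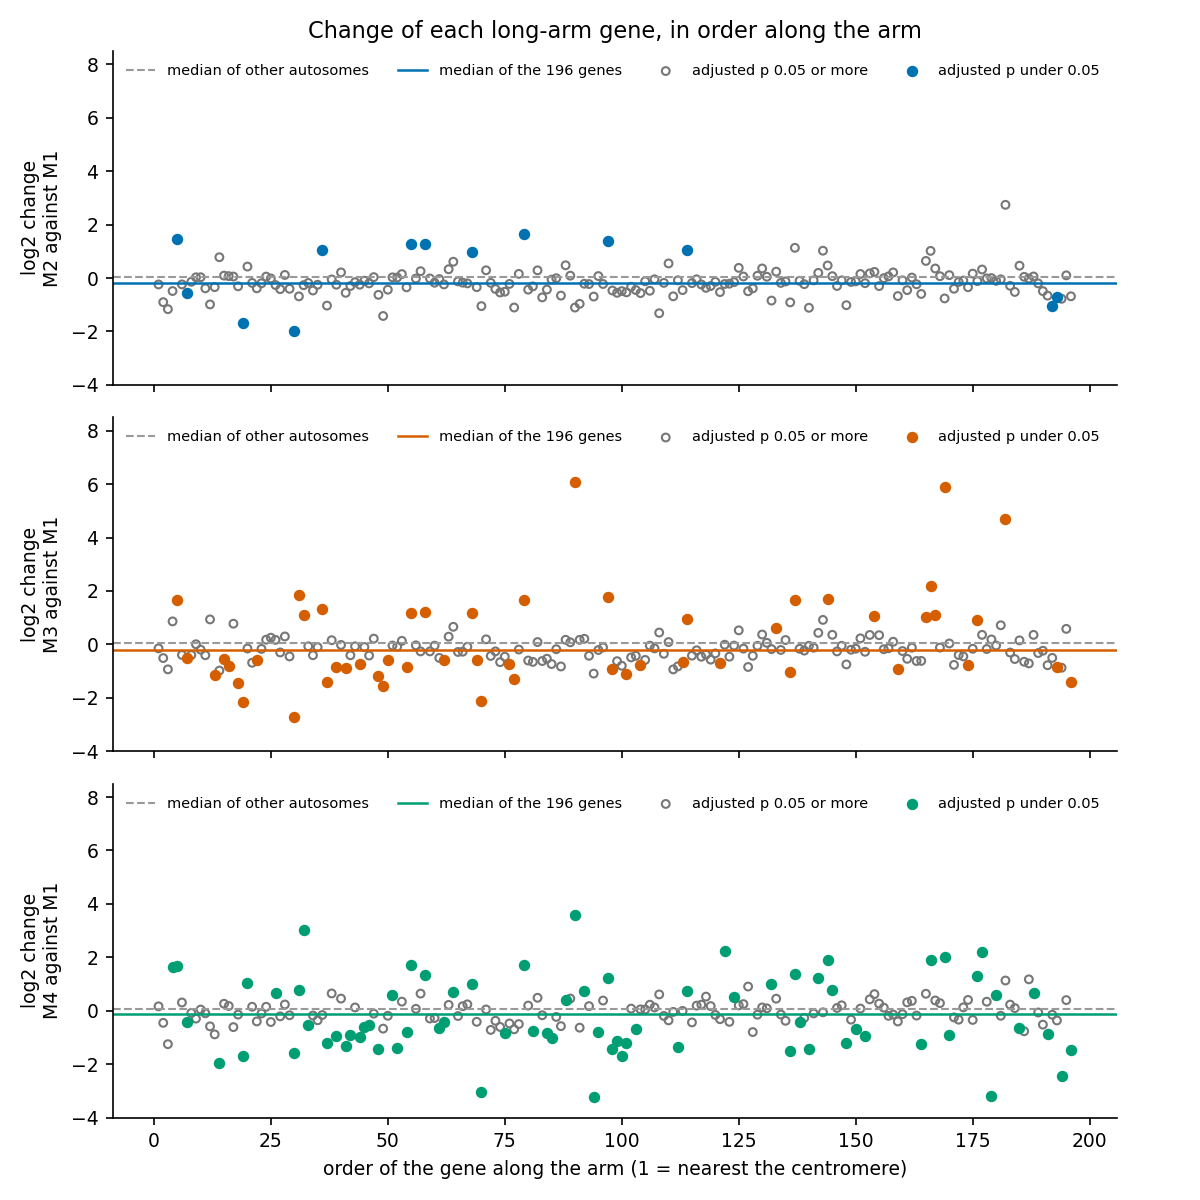
Log2 fold change of each of the 196 long-arm genes (y axis) in M2, M3 and M4 against M1, in order along the arm from the centromere (x axis, rank); filled points passed adjusted p under 0.05, the solid line is the median of the 196 genes and the dashed line that of the other autosomes. Genes called higher and lower are interspersed along the arm in all 3 comparisons, and the solid line lies 0.19 to 0.27 below the dashed one.

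Most genes of the arm changed little: 173 of the 196 stayed within 2-fold in M2 against M1 (88.3%, against 91.9% of the other autosomes' genes), 165 in M3 (84.2% against 83.6%) and 154 in M4 (78.6% against 78.7%). The middle 50% of the log2 fold changes spanned -0.44 to 0.058 in M2, -0.59 to 0.17 in M3 and -0.57 to 0.35 in M4, and 68.9%, 69.4% and 54.6% of the genes were below 0. The spread among the genes was therefore wider than the shift of their median, and the extremes, from -3.24 to 6.09, lay on both sides of it.

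Tested singly, 8 of the 196 genes were called higher in M2 against M1 at an adjusted p under 0.05, where 3.37% of all genes tested were called higher, and 5 were called lower, where 1.46% were. In M3 against M1, 21 were higher (12.9% of all genes tested) and 31 lower (8.33%). In M4 against M1, 30 were higher (15.6%) and 43 lower (15.8%). In M4 against M3, 22 were higher (7.05%) and 17 lower (9.72%). As shares of the 196 genes these were 4.08% and 2.55% in M2, 10.7% and 15.8% in M3, 15.3% and 21.9% in M4, and 11.2% and 8.67% in M4 against M3. Among the genes of the other autosomes with the same minimum, 5.14% were called higher and 1.51% lower in M2, 17.4% and 8.53% in M3, 20.5% and 15.6% in M4, and 8.69% and 10.8% in M4 against M3. The numbers of long-arm genes called changed when 1 library was left out, as given in the closing section. No share of all genes is given for those fits, so their counts cannot be read as a property of the arm. Altogether 96 of the 196 genes were called in at least 1 of M2, M3 and M4 against M1, and 100 in none. These 96 were 49.0% of the arm's genes, against 46.0% of the other autosomes' genes. 7 genes were called higher in all 3 lines (3.57%, against 3.87% on the other autosomes) and 3 were called lower in all 3 (1.53% against 0.763%). With the 2 disputed libraries exchanged, 30 of 39 calls against M1 were lost among the 32 genes named by rule. The losses included every call of MYBL2, TPX2, UBE2C, DSN1, TP53INP2, NECAB3, ERGIC3, RPS21 and PCMTD2. They also included the calls of SNAI1 in M4 and of PMEPA1 and ACSS2 in M3. Among the 9 that were kept were PI3 in M3 and M4, COL9A3 in M3, and ACSS2, BCL2L1, PMEPA1, DBNDD2 and STMN3 in M4.

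Genes of mitosis and the cell cycle had medians above 0 where the arm's were below it. Of 16 listed, 7 rose and none fell in M2, 8 rose and 2 fell in M3, and 10 rose and none fell in M4, with median log2 fold changes of 0.79, 0.80 and 0.87 where the median over all genes tested was -0.035, -0.016 and -0.017. Rises were called for 3.37%, 12.9% and 15.6% of all genes tested in these comparisons, and falls for 1.46%, 8.33% and 15.8%. Without M1 replicate 1 the list's medians were 1.00, 0.92 and 1.06. The same direction was seen off the chromosome: of 16 proliferation genes on other chromosomes, 14 rose in M2, 15 in M3 and 14 in M4, and their summed level was 1140 and 1013 CPM in M1 against 2034 to 2840 CPM in the other lines. All 7 long-arm genes that were called higher in M2, M3 and M4 belonged to this list. The list was written with earlier results of these data known, so this overlap is a description and not independent support.

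MYBL2, a transcription factor that drives genes of the G2 and M phases, had 34.8 and 27.9 CPM in M1, 102 and 94.9 CPM in M2, 92.2 and 106 CPM in M3 and 79.1 and 125 CPM in M4. No M1 value overlapped with those of another line. Its log2 fold change was 1.65 ± 0.23 in M2 (SE, adjusted p = 0.0108), 1.66 ± 0.23 in M3 (0.0033) and 1.71 ± 0.23 in M4 (0.00184). With the 2 disputed libraries exchanged it was 0.54 in M3 and 0.58 in M4 (adjusted p = 0.702 and 0.601). TPX2, the spindle assembly factor that activates Aurora A, had 68.1 and 44.5 CPM in M1, 157 and 151 CPM in M2, 192 and 168 CPM in M3 and 165 and 192 CPM in M4. It rose by 1.45, 1.67 and 1.66 on the log2 scale (adjusted p = 0.0123, 0.00245 and 0.00146). UBE2C, the ubiquitin-conjugating enzyme of the anaphase-promoting complex, had 32.1 and 30.7 CPM in M1, and its lowest value elsewhere was 70.5 CPM, in M4 replicate 1. DSN1, a kinetochore subunit, went from 11 and 7.66 CPM in M1 to 33 and 28.7 CPM in M4, the largest rise of the list in M4 (1.72 ± 0.22, adjusted p = 0.00137). The other genes called in all 3 lines were RBL1, a retinoblastoma-like pocket protein, FAM83D, a spindle protein, and CSE1L, the exportin that recycles importin alpha, with log2 fold changes between 0.76 and 1.34. Left with either M2 replicate alone, no long-arm gene was called in M2, those named here included. AURKA itself had 45.1 and 25.1 CPM in M1 and 76.2 CPM or more in every other library. It rose in M3 (1.66) and M4 (1.39) and missed the threshold in M2 (1.13 ± 0.26, adjusted p = 0.0511). E2F1, an activator of S phase genes, rose in M4 (1.04, adjusted p = 0.0214) and did not pass the test in M2 or M3. Near the arm's median were PHF20, a chromatin reader, and RAE1, an mRNA export and spindle factor, at -0.10 and -0.095 in M4.

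The list of genes known from 20q amplicons of breast cancers held 25 names, of which 23 were among the 196. In M2 4 rose and none fell, in M3 6 rose and 1 fell, and in M4 7 rose and 2 fell, while the list's median was -0.017, -0.05 and -0.00085. As a scale for these counts, the test called 3.37%, 12.9% and 15.6% of all genes tested higher, and 1.46%, 8.33% and 15.8% lower. The amplicon genes that rose were in large part those of the cell cycle list: AURKA, CSE1L, TPX2, UBE2C and MYBL2 stand in both. ZNF217, often taken as the target of the distal amplicon, had 31.7 and 46.2 CPM in M1, 35.4 and 33.2 CPM in M2, 30.3 and 37.2 CPM in M3 and 32.7 and 38.2 CPM in M4. All other lines lay within the range of the M1 replicates or just below it, and the log2 fold change in M4 was -0.14 (adjusted p = 0.65). NCOA3, the steroid receptor coactivator, had 102 CPM in M1 replicate 1, 38.2 CPM in M1 replicate 2 and between 34.8 and 80.6 CPM elsewhere, and did not pass the test in any line. ADNP, a homeobox protein of chromatin complexes, was at -0.14 in M4 (adjusted p = 0.704). PMEPA1, a TGF-beta induced inhibitor of Smad signalling, had 34.2 and 59.6 CPM in M1, 63.4 and 66.3 CPM in M2, 116 and 185 CPM in M3 and 139 and 215 CPM in M4. It rose by 1.68 ± 0.34 in M3 (adjusted p = 0.0133) and 1.92 ± 0.34 in M4 (adjusted p = 0.00564), and its call in M3 was lost without M1 replicate 1, without M3 replicate 2 and with the 2 disputed libraries exchanged (adjusted p up to 0.0896). Without M1 replicate 1 the list's median was 0.19, 0.20 and 0.29. With all libraries kept, its median in M4 was 0.013 with median-of-ratios size factors and 0.046 with total counts. The sign of these small medians therefore depended on that library and, in M4, also on the scaling.

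Transcription and chromatin regulators (30 genes of 38 listed) had medians of -0.20, -0.33 and -0.12 in M2, M3 and M4. 1 rose and none fell in M2, 1 rose and 4 fell in M3, and 3 rose and 6 fell in M4. Of all genes tested, 12.9% rose and 8.33% fell in M3, and 15.6% rose and 15.8% fell in M4. Without M1 replicate 1 the medians were 0.11, -0.061 and 0.14. SNAI1, which encodes the epithelial-mesenchymal transition factor Snail, was among the genes of lowest count and held 0.63 to 1.14 CPM in M1, M2 and M3 but 2.44 and 6.03 CPM in M4. It rose in M4 by 2.25 ± 0.54 (adjusted p = 0.0168), a call that was lost without M4 replicate 2 or without M1 replicate 2 (adjusted p up to 0.108). DNMT3B, a de novo DNA methyltransferase, fell in M4 from 3 and 3.53 CPM in M1 to 0.76 and 0.92 CPM (log2 fold change -1.96, adjusted p = 0.00748).

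Of 19 survival and signalling genes, none rose and 1 fell in M2, 3 rose and 2 fell in M3, and 5 rose and 4 fell in M4, with medians of -0.15, -0.18 and -0.098. The shares of all genes tested that rose were 3.37%, 12.9% and 15.6%, and those that fell 1.46%, 8.33% and 15.8%. BCL2L1, which encodes the anti-apoptotic protein BCL-xL, had 76.6 and 41.3 CPM in M1, 43.3 and 40.8 CPM in M2, 129 and 85.4 CPM in M3 and 183 and 181 CPM in M4. Every M3 and M4 library was above every M1 and M2 library. Its log2 fold change was 0.86 ± 0.30 in M3, which missed the threshold (adjusted p = 0.0739), and 1.63 ± 0.30 in M4 (adjusted p = 0.00629). PTK6, the breast tumor kinase, rose in M3 (0.91) and M4 (1.29), and SRC, the prototype Src family kinase, fell in M4 (-0.62, adjusted p = 0.032). TP53INP2, an autophagy factor, had 30 and 26 CPM in M1, 6.94 and 7.11 CPM in M2, 4.19 and 4.43 CPM in M3 and 13.7 and 5.23 CPM in M4. No library of another line reached the M1 values, and it fell in all 3 comparisons (-2.0, -2.70 and -1.56, adjusted p = 0.0333, 0.00456 and 0.0201). The M2 call was lost when either M1 or either M2 replicate was left out, and the M4 call without M1 replicate 1 or when M2 and M3 were left out of the fit. TNFRSF6B, a soluble decoy receptor for Fas ligand, had 0.79 and 6.34 CPM in M1, 24.7 and 22.9 CPM in M2, 141 and 44.3 CPM in M3 and 6.15 and 9.54 CPM in M4. It rose in M3 (4.70 ± 0.98, adjusted p = 0.0162), a call that was lost without M3 replicate 1, and its reads overlap those of RTEL1 read-through transcripts, so that its counts are uncertain. RALY, an RNA-binding protein, and SPATA2, an adaptor of the linear ubiquitin machinery, stayed near the arm's median in M4, at -0.098 and -0.15.

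Secreted proteins, protease inhibitors and lysosomal enzymes on the arm met the count minimum in 9 of 29 listed cases, and the list held the largest rises. None was called in M2, 2 rose in M3, and 3 rose and 2 fell in M4, with medians of -0.33, 0.17 and 0.085. Over all genes tested, the called shares were 3.37%, 12.9% and 15.6% for rises and 1.46%, 8.33% and 15.8% for falls. PI3 had 9.68 and 2.92 CPM in M1, 3.07 and 2.77 CPM in M2, 448 and 411 CPM in M3 and 52.6 and 99.8 CPM in M4. It rose by 6.09 ± 0.63 in M3 (adjusted p = 0.00147) and 3.60 ± 0.56 in M4 (adjusted p = 0.00387), and both calls held under every alternative tried. COL9A3, a chain of the cartilage collagen IX, was just above the count minimum in M1 and M2, at 0.71 to 1.40 CPM, and had 34 and 129 CPM in M3 and 3.83 and 7.03 CPM in M4. Its rise was 5.91 ± 0.70 in M3 (adjusted p = 0.00233) and 2.00 ± 0.61 in M4 (adjusted p = 0.0422), the latter lost whichever M1 or M4 replicate was left out. LAMA5, a laminin chain of basement membranes, had 180 and 135 CPM in M1 and 152 and 127 CPM in M4 and did not pass the test, nor did CTSA, a lysosomal carboxypeptidase that protects beta-galactosidase (0.085, adjusted p = 0.764).

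Genes of general cell machinery had medians below 0 in each line. Of the 39 genes of this list, none rose and 1 fell in M2, 1 rose and 6 fell in M3, and 1 rose and 10 fell in M4, with medians of -0.19, -0.26 and -0.29, where the whole arm had -0.18, -0.21 and -0.11. Among the 196 genes 2.55%, 15.8% and 21.9% were called lower, and among all genes tested 1.46%, 8.33% and 15.8%. The shares called higher were 4.08%, 10.7% and 15.3% on the arm, and 3.37%, 12.9% and 15.6% over all genes tested. Without M1 replicate 1 the list's medians were -0.022, -0.17 and -0.10. ERGIC3, a cargo receptor between endoplasmic reticulum and Golgi, had 289 and 308 CPM in M1, 207 and 199 CPM in M2, 191 and 138 CPM in M3 and 115 and 123 CPM in M4. Its M1 values were above all others, and it fell in M3 (-0.86 ± 0.17, adjusted p = 0.0126) and in M4 (-1.32 ± 0.17, adjusted p = 0.00165). RPS21, a protein of the small ribosomal subunit, went from 772 and 665 CPM in M1 to 298 and 309 CPM in M4 (-1.24 ± 0.25, adjusted p = 0.00885), a call that was lost without either M4 replicate. PSMA7, a proteasome subunit, and SERINC3, a membrane protein that takes part in lipid scrambling, did not pass the test in M4, at -0.14 and -0.16. SERINC3 was at 171 CPM in M1 replicate 1 and between 81.9 and 130 CPM in the other 7 libraries. Where no gene of a list was called in a direction by edgeR, DESeq2 called 0 to 2, and 0 to 6 had an unadjusted p under 0.05.

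**Figure D4:**
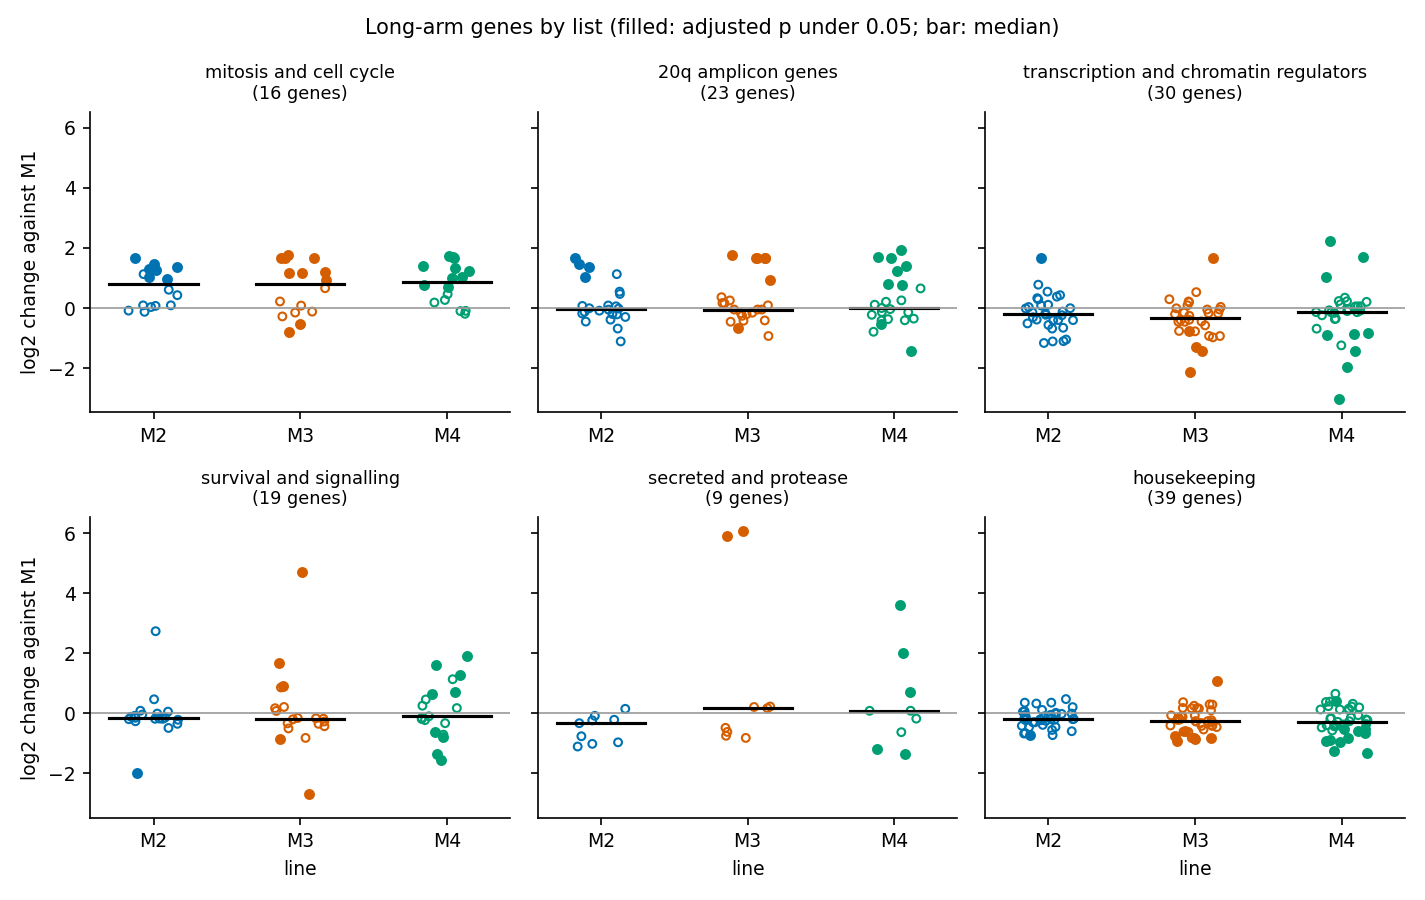
Log2 fold change against M1 (y axis) of the long-arm genes in each of 6 lists, for M2, M3 and M4 (x axis); each point is a gene, filled where adjusted p was under 0.05, and the black bar is the list's median. The cell cycle list has medians of 0.79, 0.80 and 0.87, the housekeeping list -0.19, -0.26 and -0.29, and PI3 and COL9A3 lie near 6 in M3.

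Of the 196 genes 87 were in no list, and some of the largest changes were among them. ACSS2, the cytosolic acetyl-CoA synthetase that makes acetyl-CoA from acetate, had 77.6 and 55.6 CPM in M1, 53.2 and 57.4 CPM in M2, 140 and 145 CPM in M3 and 598 and 496 CPM in M4. The lines M3 and M4 were each separate from all others, and the rise was 1.10 ± 0.19 in M3 (adjusted p = 0.00715) and 3.04 ± 0.20 in M4 (adjusted p = 0.000165). NECAB3, a neuronal calcium-binding family member, fell from 24.2 and 17.4 CPM in M1 to 4.55 to 7.26 CPM in the other 6 libraries (-1.70, -2.17 and -1.67, adjusted p = 0.0114, 0.00159 and 0.00237). TM9SF4, a transmembrane protein of the nonaspanin family, was the third gene that fell in all 3 lines, by about the same small amount (-0.55, -0.51 and -0.41). SAMD10, a SAM domain protein, fell in M2 (-1.05 ± 0.22, adjusted p = 0.0402), a call that no fit with one of the M1 or M2 replicates left out kept. DBNDD2, a dysbindin domain protein, had 35.5 and 39 CPM in M1, 23.2 and 22.9 CPM in M2, 25.8 and 9.23 CPM in M3 and 3.98 and 3.92 CPM in M4, and fell in M4 (-3.24 ± 0.43, adjusted p = 0.00181). STMN3, a stathmin family microtubule regulator, had 6.90 and 26.8 CPM in M1, 17.2 and 16.4 CPM in M2, 26.4 and 12 CPM in M3 and 2.15 and 1.59 CPM in M4. Both M4 values lay below all others, and it fell in M4 (-3.17 ± 0.66, adjusted p = 0.0117), a call lost without either M4 replicate. Of the end genes, HM13, the signal peptide peptidase, did not pass the test in any line, while PCMTD2, a carboxylmethyltransferase family member, had 36 and 27.1 CPM in M1, 19.5 and 19.7 CPM in M2 and between 10.4 and 13.2 CPM in M3 and M4, and fell in M3 (-1.40 ± 0.20) and M4 (-1.47 ± 0.20, adjusted p = 0.00193).

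**Figure D5:**
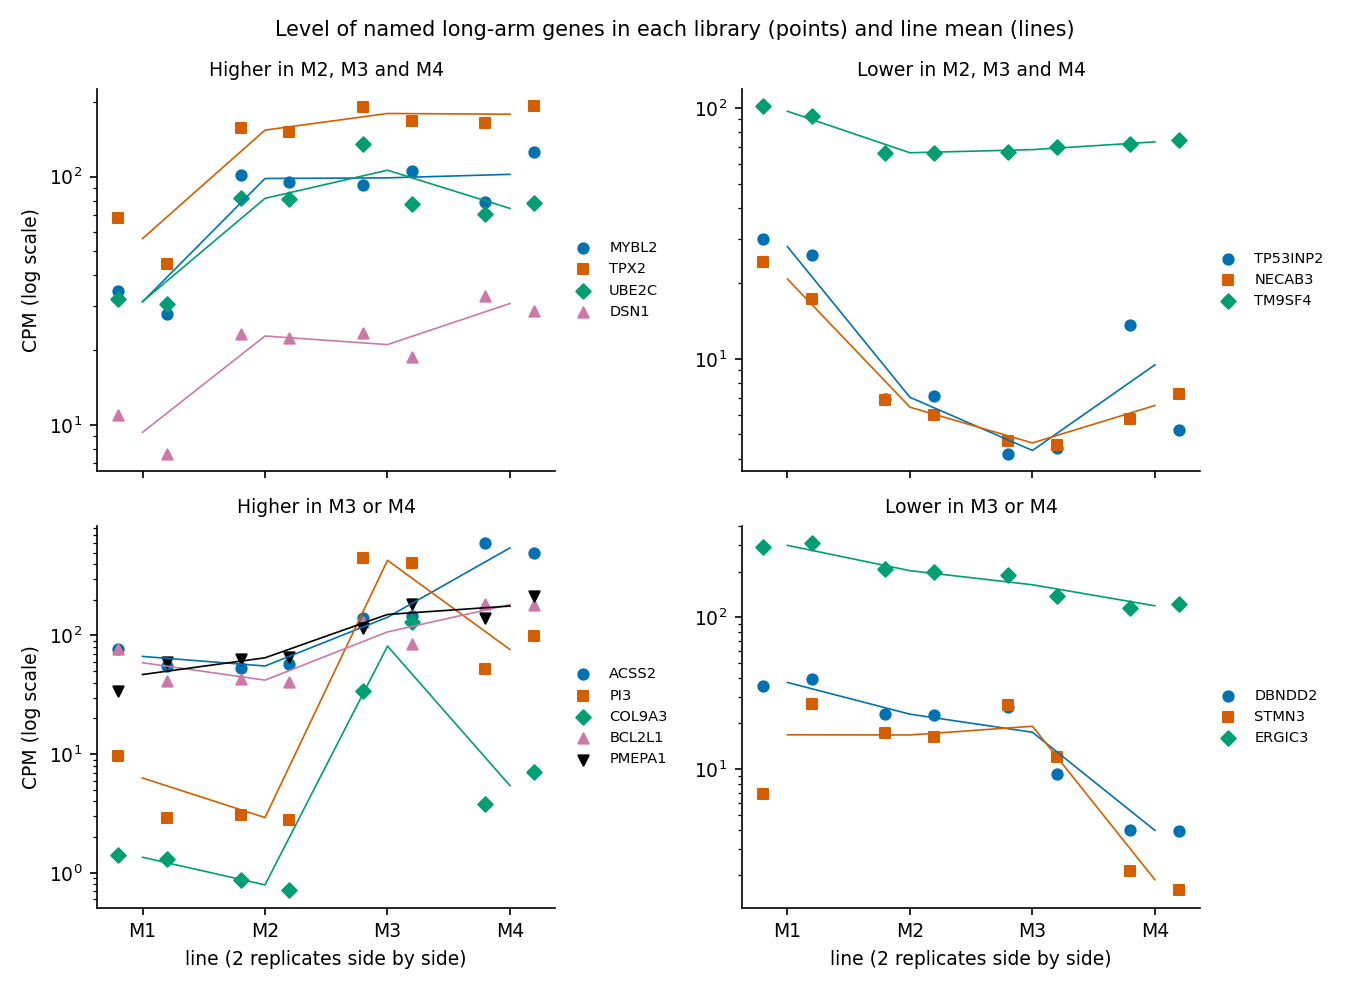
CPM (y axis, log scale) of 15 named long-arm genes in each library, with the 2 replicates of a line side by side (x axis) and lines joining the means; panels group genes by where they passed the test. MYBL2, TPX2, UBE2C and DSN1 are lowest in M1, ACSS2 reaches 598 CPM in M4, PI3 reaches 448 CPM in M3, and DBNDD2 and STMN3 are lowest in M4.

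The count minimum shapes what is seen, since a gene that is silent in 1 line cannot be among the 196. The genes just inside it were SNAI1 and COL9A3, with a smallest count of 50 each, and HMGB1P1, a gene of the HMGB1 family whose reads may be shared with its parent, with 61. Just outside it were LIME1, a lymphocyte adaptor, with 41, TSHZ2, a teashirt family zinc finger gene, with 39, and KCNG1, a potassium channel subunit, with 35. TSHZ2 held 1349 and 928 counts in the M1 replicates, fewer in those of M2 (415 and 305) and M3 (296 and 280), and 72 and 39 in M4. KCNG1 held 60 and 56 counts for M1 and 54 and 35 for M2, against 612 and 498 for M3 and 195 and 54 for M4. Below the minimum were 156 protein-coding long-arm genes, 57 of them at 0 in every library. Of the 156, 58 were tested, and 0 were called higher and 2 lower in M2. In M3 these numbers were 5 and 8, and for M4 they were 4 and 19. As shares, 3.45%, 13.8% and 32.8% were called lower, against 2.97%, 10.8% and 23.5% of 2763 such genes on the other autosomes. The shares called higher were 0%, 8.62% and 6.90%, against 0.90%, 9.95% and 10.8% there. For the 17 with 10 to 49 counts as their smallest value, the median log2 fold change was -0.52 in M2, -0.71 in M3 and -0.88 in M4, where 1006 genes of the other autosomes in the same range of counts had -0.35, -0.27 and -0.46. Between the M1 replicates these 17 genes were at -0.013 and the 1006 at -0.11. Of the 435 long-arm genes that are not protein coding, 42 were tested, with 1 called higher and 4 lower in M4. Of all genes tested, 15.6% were called higher and 15.8% lower in M4.

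Sequence features played no part in choosing the genes. The median GC content of the canonical transcript was 52.5% for the 196 genes, 48.2% for the short arm and 47.9% for the other autosomes, and the median transcript length 2962, 3418 and 3394 bases. The level of the genes is bound up with the count minimum, and its median was 40.1 CPM for the 196 genes and 31.7 CPM on the other autosomes. Chromosome 19, which has the highest median GC content (59.9%), was also among the lowest in M3 and M4. Chromosomes 22, 16 and 17 came next in GC content (56.7%, 55.7% and 54.4%). They were at -0.11, -0.23 and 0.014 in M3 against M1 and at -0.032, -0.017 and -0.034 in M4 against M1. With the fold changes corrected for GC content, the shift of the long arm was -0.17 in M2, -0.25 in M3 and -0.13 in M4.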

How the data were processed

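The authors deposited RSEM expected counts per gene, not normalized, for 8 libraries; reads had been trimmed with Trimmomatic, aligned with STAR to hg19 and counted against GENCODE 19, and tool versions and strand are not given in the sources used here. These estimated counts (12.8% of the values not whole) were rounded to whole numbers. Gene types and positions came from GENCODE 44 mapped to GRCh37, which matched 94.7% of the identifiers with a count. Genes were filtered with filterByExpr, scaled by TMM and tested with edgeR 4.0.16 (robust quasi-likelihood F test, all 8 libraries, 1 term per line; R 4.3.3), with Benjamini-Hochberg adjustment over 18431 genes and a threshold of 0.05; the pipeline was tested on simulated data. Fold changes of the arm and windows are medians minus the median of the other autosomes. Libraries follow the sample labels. The labels' replicate numbers are shared between lines, but nothing ties same-numbered samples, and the block is an alternative. DESeq2 1.42.0, other scalings, filters and left-out libraries were alternatives.

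The genes and the 6 lists were chosen with earlier results of these data known. Genes were named by rule: in each list the largest changes in M4 and those nearest the arm's median; the 3 largest rises and falls per line against M1 among called genes that moved alike in every pair of replicates; the genes around the count minimum; the first and last; and those called in all 3 lines. AURKA, ID1, NCOA3, E2F1, DNMT3B, PTK6, SRC and the genes completing small counts, among them RBL1, FAM83D, CSE1L and TM9SF4, were named after their values were seen. 2 further genes are not reported here. P-values measure the spread between 2 samples per line, which may be technical.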

Additional observations from a re-analysis of the deposited data

Results flagged for a closer look

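For 7 of the 32 long-arm genes named by rule, the changes of M3 and of M4 against M1 differed from each other. This was tested by M4 against M3 in the same edgeR fit, a comparison with one medium. E2F1, which the rule did not name, was also higher in M4 than in M3 (1.19, adjusted p = 0.0232). COL9A3 was lower in M4 than in M3 (-3.91 on the log2 scale, adjusted p = 0.0096), having changed by 5.91 in M3 and 2.00 in M4 against M1. TNFRSF6B was lower in M4 by -3.57 (adjusted p = 0.0397), with 4.70 and 1.14 against M1, and was not called with the replicate block (adjusted p = 0.0635). STMN3 was lower in M4 by -3.35 (adjusted p = 0.0186), with 0.19 and -3.17 against M1. PI3 was lower in M4 by -2.50 (adjusted p = 0.0224), with 6.09 and 3.60 against M1. DBNDD2 was lower in M4 by -2.15 (adjusted p = 0.0153), with -1.09 and -3.24 against M1. ACSS2 was higher in M4 by 1.94 (adjusted p = 0.00188), with 1.10 and 3.04 against M1, and SNAI1 by 2.26 (adjusted p = 0.0285), with -0.011 and 2.25 against M1. Each call except that of ACSS2 was lost when at least 1 of the 4 libraries of M3 and M4 was left out, with adjusted p up to 0.0721 for COL9A3, 0.196 for TNFRSF6B, 0.105 for STMN3, 0.126 for PI3, 0.0965 for DBNDD2 and 0.143 for SNAI1.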

How the results depend on the processing

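With M1 replicate 1 left out, and over the other libraries left out singly, the long arm's shift ran from -0.32 to -0.077 in M2 against M1, from -0.36 to -0.21 in M3 and from -0.27 to -0.031 in M4; M3 against M2 ran from -0.12 to -0.076, M4 against M3 from 0.073 to 0.13 and M4 against M2 from 0.059 to 0.095. With the short arm as the comparison the shifts against M1 were -0.068, -0.091 and -0.064. With the mean in place of the median, M3 was at -0.20 against M1 and -0.018 against M2. With the 2 libraries exchanged, M2 was at -0.11 and M4 at -0.090 against M1. No shift changed sign, and 83 of 95 values moved by less than the pooled SD between replicates (0.063). That SD came mostly from M1 (0.12, against 0.00062 to 0.016 in the other lines). It exceeded the whole shift of M4 against M2 (0.051), so it is a loose measure for the smaller shifts. The other scalings among the 95 could hardly move a difference of 2 medians. Wider windows of 10 megabases narrowed the range between windows to 0.14 in M2 and 0.20 in M4 against M1 and to 0.31 in M4 against M3.

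The numbers of genes called moved more, with 72 of 118 within 1.5 times. Leaving out 1 library gave 0 to 6 genes higher and 0 to 9 lower in M2 (0 and 0 by edgeR without either M2 replicate, where 11 to 13 genes in each direction had an unadjusted p under 0.05), 19 to 23 and 14 to 35 in M3, 17 to 34 and 17 to 34 in M4, and 6 to 19 and 1 to 20 in M4 against M3 (6 and 1 without M4 replicate 1). With the 2 libraries exchanged none was called in M2 in either direction by edgeR (0 higher and 2 lower at an unadjusted p under 0.05), 3 were higher and 0 lower in M3 (30 lower unadjusted), and 6 higher and 10 lower in M4; the shift of M3 against M2 was then -0.15; DSN1 (-0.18), MYBL2 (-0.15), TPX2 (-0.20), UBE2C (-0.028) and SAMD10 (0.0063) then changed sign in M2. At an adjusted p under 0.01, M2 had 0 higher and 0 lower, M3 had 15 and 6, M4 had 15 and 18, and M4 against M3 had 4 and 2. Over 2-fold, M2 had 7 higher and 3 lower, M3 had 18 and 12, M4 had 17 and 22, and M4 against M3 had 9 and 11. Falls over 2-fold against M1 were 1.53%, 6.12% and 11.2% of the 196 genes, where the other autosomes had 0.953%, 4.25% and 8.62%. Rises over 2-fold were 3.57%, 9.18% and 8.67%, where the other autosomes had 3.28%, 9.24% and 10.5%. DESeq2 called 11 higher and 15 lower in M2, and 36 higher and 20 lower in M4 against M3. Without the low-count filter M2 had 12 higher and 23 lower. With only the 2 lines in the fit, M2 had 10 higher and 10 lower, M3 had 15 and 6, and M4 against M3 had 15 and 10. In that last comparison total counts gave 26 higher and 10 lower, moving the median of all genes by 0.12. A minimum of 200 counts gave 19 and 11 there. The cause of these moves was not tested.

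The replicate block left the shift at -0.21, -0.27 and -0.18 against M1. For M2 it called 9 genes higher instead of 8 and 3 lower instead of 5. Same-numbered replicates deviated together only between M3 and M4 (correlation 0.28, the other pairs of lines -0.086 to 0.015). The numbers were therefore not taken to pair the samples. Of 46 calls of the 32 genes named by rule, 8 held under every alternative tried. Calls of genes named otherwise, such as AURKA, E2F1, RBL1 and TM9SF4, are not in this count.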
